A study of Rhodotorula toruloides with 9 samples.

Results

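The transcriptome of Rhodosporidium toruloides grown on d-galacturonic acid (d-galUA) was set against that of cultures grown on d-glucose (d-glc), over every gene model of strain IFO0880. The 2 groups were 3 d-galUA libraries and 3 d-glc libraries, 6 of the 9 libraries in the series. They covered all 8578 gene models, of which 8486 carry a protein number and 92 carry a CAND identifier. Both groups were the same strain in liquid yeast nitrogen base, and they differed in the carbon source added. The labels place the sampling of all cultures in log phase, whereas the study's methods place it where stationary phase begins. Enriched mRNA was sequenced, and the deposited level of a gene is its FPKM, the fragments per kilobase of transcript scaled to the mapped fragments of the library. A further library carries the label of d-glc replicate 4. It was left out because the d-glc means in the study's table use d-glc replicates 1 to 3. The glycerol means in that table include this library with the 2 labelled glycerol, and the methods describe triplicate cultures for each carbon source. Its effect when added as labelled is given below, to be read beside that. FPKM is relative to each library, so a change in the share of cells that express a gene and a change in RNA per cell cannot be told apart. Another 2 libraries came from glycerol cultures, and their FPKM is given beside a few genes as a description.

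d-galUA is the sugar acid that makes up most of pectin, and it is more oxidized than d-glc. Fungi that use it first reduce it to l-galactonate, dehydrate that to a keto-deoxy acid, and cleave the product with an aldolase into pyruvate and l-glyceraldehyde, which a further reductase converts to glycerol. d-glc instead enters glycolysis directly as a hexose phosphate. Carbon from d-galUA therefore reaches the cell as glycerol and pyruvate, and hexose phosphates have to be rebuilt by gluconeogenesis. R. toruloides is a red basidiomycete yeast known for storing triacylglycerol and making carotenoids.

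Genes are given by their protein number in the version 4 gene models. Names such as GUT1 are those of S. cerevisiae orthologs in the study's annotation, and the roles given with them are known mainly from S. cerevisiae. An ortholog entry often holds several yeast paralogs. The copy of the annotation table used here was shortened and held 1999 gene models, nearly all with a mean FPKM of 50 or more on d-galUA: 1981 of the 2030 genes at or above that level were in it. A name or a note was given for 1240 of the genes tested, which leaves 569 of the higher and 568 of the lower genes below without a name in this copy. The named genes therefore lean toward genes that are high on d-galUA. No sequence of this strain was used, so none is printed.

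Depth, computed from coverage and FPKM, was 33.6 to 36.9 M mapped reads in the d-galUA libraries and 28.5 to 51.9 M in the d-glc libraries. Over all genes, Pearson's r of log2(FPKM + 1) ran from 0.988 to 0.991 between d-galUA libraries, from 0.977 to 0.979 between d-glc libraries and from 0.877 to 0.886 between the carbon sources. For the library labelled d-glc replicate 4, r was 0.870 to 0.872 against the 3 d-glc libraries and 0.987 to 0.989 against the 2 glycerol libraries. The d-glc libraries spread more than the d-galUA libraries. Over 6527 genes with a mean FPKM of 5 or more on both carbon sources, the median coefficient of variation was 5.21% on d-galUA and 15.01% on d-glc. The spread on d-glc went with the length of the gene model. In models of up to 1000 bp, the median deviation from the d-glc mean was -0.21 on the log2 scale in replicate 1, -0.03 in replicate 2 and 0.23 in replicate 3. In models longer than 3000 bp it was -0.04, 0.16 and -0.11 in the same 3 libraries. In the d-galUA libraries these medians ran from -0.02 to 0.02. The median difference between the carbon sources was -0.08 in the short and -0.05 in the long models, and what part length plays in any single result below was not tested. Per the study's methods the cultures of each carbon source were inoculated from a single starter culture, so the p-values below measure the spread between such cultures.

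Of the 8455 genes with an FPKM above 0 in at least 1 of the 6 libraries, 697 were higher and 626 were lower on d-galUA than on d-glc. A gene was counted when its adjusted p was under 0.05 (limma on log2(FPKM + 1), Benjamini-Hochberg over all 8455 genes), its mean FPKM was at least 5 on 1 of the carbon sources, and its mean FPKM differed at least 2-fold. These counts are 8.24% and 7.4% of the genes tested. An adjusted p under 0.05 alone was reached by 3988 genes, 1970 of them with a positive (23.3% of the genes tested) and 2018 with a negative log2 fold change (23.9%). Among the genes that could be named these shares were 28.2% and 22.7%. The median log2 fold change of all genes tested was -0.005. Among the 1240 genes that could be named, 10.3% were higher and 4.68% were lower. The lists below found by yeast name draw on these genes, so the shares of named genes are their background. Few genes that are low on d-galUA could enter such a list. A small count of lower genes in a list is therefore partly set by how the list was found. Counts near those shares do not set a list apart, as with chaperones (3 of 25 higher) and histone and DNA replication genes (1 of 22 lower). With the library labelled d-glc replicate 4 added to the d-glc group, 364 genes were higher and 303 were lower, and 108 of the 232 called genes that were examined by name lost their call. As given above, r of that library was 0.987 to 0.989 with the glycerol and 0.870 to 0.872 with the d-glc libraries. Calls lost with it added, here and in each list below, are to be read beside these values.

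The changes ran from about 2-fold to far beyond 100-fold. Among the higher genes, 249 differed at least 4-fold, 89 at least 10-fold and 19 at least 100-fold in mean FPKM. Among the lower genes these counts were 229, 117 and 25. The median ratio was 3.11 among the higher genes, and among the lower genes the d-glc mean was a median 2.94 times the d-galUA mean. Genes higher on d-galUA took 17.8% ± 0.213 of all TPM (a unit in which each library sums to the same total) on d-galUA and 3.02% ± 0.263 on d-glc (SD, n = 3 each). Genes lower on d-galUA took 3.34% ± 0.0259 on d-galUA and 10.96% ± 0.841 on d-glc. The direction of both differences follows from how the genes were chosen in these same libraries, so the shares describe only their size. The higher genes included several of the most abundant transcripts on d-galUA: of 106 genes with a mean FPKM of 1000 or more on d-galUA, 17 were higher. Of the 125 such genes on d-glc, 14 were lower on d-galUA. Over all genes tested 8.24% were higher and 7.4% lower. Each of these sets was chosen by its level on the carbon source where the called genes are high. The counts are therefore a description only. In all 697 higher genes every d-galUA library lay above every d-glc library, and 623 of the 626 lower genes showed the reverse. Over all genes tested, 29.1% lay wholly above and 30.1% wholly below. Lack of overlap in a called gene is therefore no support beyond the call itself.

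**Figure D1:**
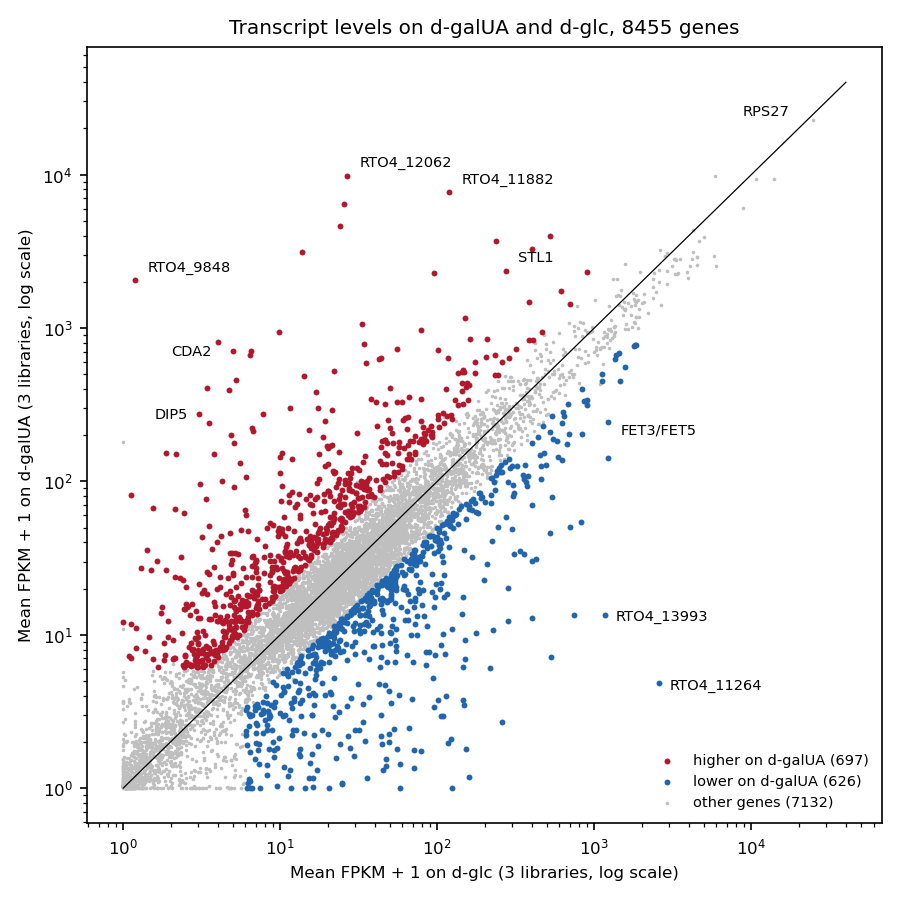
Mean FPKM + 1 of each of the 8455 genes tested on d-galUA (vertical axis) against d-glc (horizontal axis), both on log scales, with 697 higher genes in red, 626 lower genes in blue, the other genes in gray and the line of equality in black. The enzyme gene RTO4_12062 stands far above the line, RTO4_11264 far below it, and RPS27, the most abundant transcript on both carbon sources, near it.

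All 4 genes of the d-galUA pathway were higher on d-galUA. RTO4_12062, the dehydratase, had 9607, 9800.4 and 10130.4 FPKM on d-galUA and 22.5, 27.2 and 26.9 FPKM on d-glc (log2 fold change 8.54, SE 0.11, limma adjusted p = 1.57e-08). RTO4_12061, the aldolase, had 6072, 6337 and 6783 FPKM on d-galUA and 20.3, 34.02 and 19.2 on d-glc (log2 fold change 8.02, SE 0.21, limma adjusted p = 1.72e-07). RTO4_12062 and RTO4_12061 ranked 2 and 7 of all genes by mean FPKM on d-galUA, and 3753 and 3872 on d-glc. RTO4_11882, noted in the study as the d-galUA reductase, had 7069.9, 7516 and 8414 FPKM on d-galUA and 100.4, 141 and 113 on d-glc (log2 fold change 6.02, SE 0.15, limma adjusted p = 1.63e-07). RTO4_9774, the l-glyceraldehyde reductase, had 3639, 4054 and 4251 FPKM on d-galUA and 457, 516 and 599.9 on d-glc (log2 fold change 2.93, SE 0.14, limma adjusted p = 3.59e-06). Its level on d-glc was the highest of the 4, and its fold change the lowest. In each of the 4 genes the libraries of the 2 carbon sources were far apart.

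Of 7 sugar transporters singled out in the annotation, 5 were higher on d-galUA. The sugar transporter RTO4_9841 had 4572, 4909 and 4334 FPKM on d-galUA and 20.7, 25.3 and 23.6 on d-glc (log2 fold change 7.58, SE 0.11, limma adjusted p = 1.57e-08). Its model overlaps the neighboring RTO4_9840 by 203 bp, and RTO4_9840 had 6.401, 6.29 and 6.97 FPKM on d-galUA and 6.15, 5.81 and 5.99 on d-glc. RTO4_16194 had 3246, 3011 and 3179 FPKM on d-galUA and 10.998, 14.2 and 13.1 on d-glc (log2 fold change 7.84, SE 0.11, limma adjusted p = 1.57e-08), and RTO4_10452 had 867, 810.4 and 767 on d-galUA and 3.501, 2.27 and 3.21 on d-glc. RTO4_9846 and RTO4_9848 are paralogs of RTO4_9841 that the study notes as possible pseudogenes. RTO4_9846 had 671, 785 and 661 FPKM on d-galUA and 6.103, 5.56 and 4.95 on d-glc. RTO4_9848 had 1702, 2368 and 2053 FPKM on d-galUA, whereas on d-glc it had 0.555 FPKM in replicate 1 and was listed at 0 in the other 2 libraries. Reads shared between such paralogs cannot be told apart here, since how the authors assigned them is not given in the sources used here. The homologs of the Neurospora crassa d-galUA transporter GAT-1 did not reach 2-fold: RTO4_13727, which overlaps another model by 283 bp, had 103, 104 and 112 FPKM on d-galUA and 73.9, 74.9 and 95.3 on d-glc (log2 fold change 0.39, SE 0.12, limma adjusted p = 0.0313), and RTO4_13731 had 48.3, 51.1 and 52.8 on d-galUA and 45.5, 44.5 and 58.1 on d-glc (limma adjusted p = 0.775).

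RTO4_13270, a zinc binuclear cluster transcription factor, was also higher on d-galUA. It had 96.2, 92.7 and 89.1 FPKM on d-galUA and 8.18, 10.8 and 9.04 FPKM on d-glc (log2 fold change 3.19, SE 0.12, limma adjusted p = 8.34e-07). At these levels it was a moderately abundant transcript on d-galUA and a rare one on d-glc. Outside the pathway, several further reductases were higher. Of 11 sugar and aldehyde reductases found by yeast name, 8 were higher and 0 lower, against 10.3% and 4.68% of named genes. Their median log2 fold change was 2.93. Reductases that are low on d-galUA could rarely enter this list, so the count of lower genes is limited by how it was found. This list includes the pathway reductases RTO4_11882 and RTO4_9774. RTO4_13562, of the NADPH-dependent ADH6 and ADH7 alcohol dehydrogenase family, had 635, 659.8 and 702 FPKM on d-galUA and 3.89, 4.65 and 7.59 on d-glc (log2 fold change 6.75, SE 0.20, limma adjusted p = 2.67e-07). Another member of that family, RTO4_13554, had 135, 128 and 129.8 FPKM on d-galUA and 4.899, 3.703 and 4.995 on d-glc. RTO4_13947, of the same family, had 1132, 1204 and 1121 FPKM on d-galUA and 139, 162 and 149 on d-glc. ARA2 (RTO4_16713), an arabinose dehydrogenase, had 139, 140.1 and 140.4 FPKM on d-galUA and 9.65, 11.8 and 11.1 on d-glc (log2 fold change 3.57, SE 0.10, limma adjusted p = 2.52e-07). In these 4 genes no d-galUA library overlapped any d-glc library, as in all 697 higher genes.

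**Figure D2:**
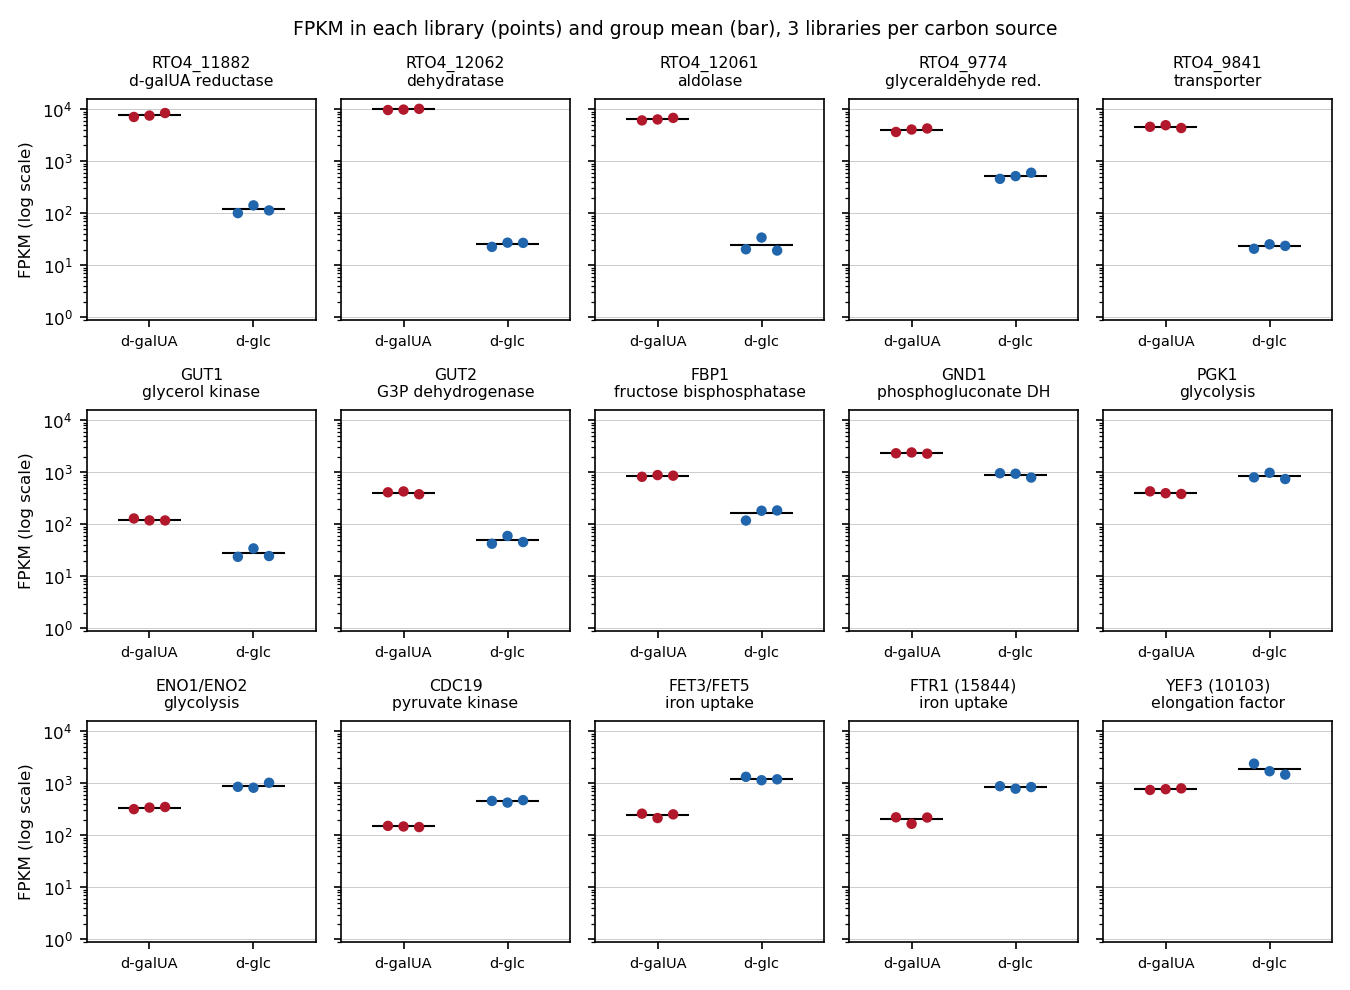
FPKM (log scale) of 15 genes in each library, with d-galUA to the left in red, d-glc to the right in blue, points for libraries and black bars for group means (n = 3 each). The reductase RTO4_11882, the dehydratase, the aldolase and the transporter RTO4_9841 show the widest gaps, RTO4_9774, the glycerol genes, FBP1 and GND1 are higher on d-galUA, and PGK1, ENO1/ENO2, CDC19, the iron uptake genes and YEF3 are lower. The groups do not overlap in any of the 15 panels, as in nearly all called genes.

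The aldolase and dehydratase genes lie next to each other on scaffold 2, on opposite strands and facing apart. RTO4_12061 spans positions 373079 to 374655 on the minus strand, and RTO4_12062 spans 376601 to 378918 on the plus strand, in the coordinates of the deposited tables for the version 4 genome. The model RTO4_CAND94 lies between them, and RTO4_12060, an ortholog entry of the yeast mating kinases FUS3 and KSS1, lies next to the aldolase. RTO4_12060 had 81.4, 78.8 and 81.6 FPKM on d-galUA and 0.168, 0.114 and 0.0935 on d-glc (log2 fold change 6.18, SE 0.11, limma adjusted p = 2.89e-08). RTO4_CAND94 had 37.5, 37.7 and 42.8 FPKM on d-galUA and 3.16, 3.29 and 2.405 on d-glc. These 4 neighbors formed a run of higher genes. The genes on either side did not follow: RTO4_12059 had 47.9, 49.8 and 46.1 FPKM on d-galUA and 45.7, 53.4 and 42.8 on d-glc (limma adjusted p = 0.869), and RTO4_12063 had 30.7, 38.3 and 24.9 on d-galUA and 29.4, 53.03 and 44.8 on d-glc (limma adjusted p = 0.196). A further FUS3 and KSS1 entry nearby, RTO4_12065, was lower, with 85.9, 84.8 and 77.4 FPKM on d-galUA and 173, 218 and 169 on d-glc (log2 fold change -1.16, SE 0.12, limma adjusted p = 2.10e-04). RTO4_12059 and RTO4_12060 overlap by 27 bp on opposite strands, and whether the counting used strand is not given in the sources used here.

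**Figure D3:**
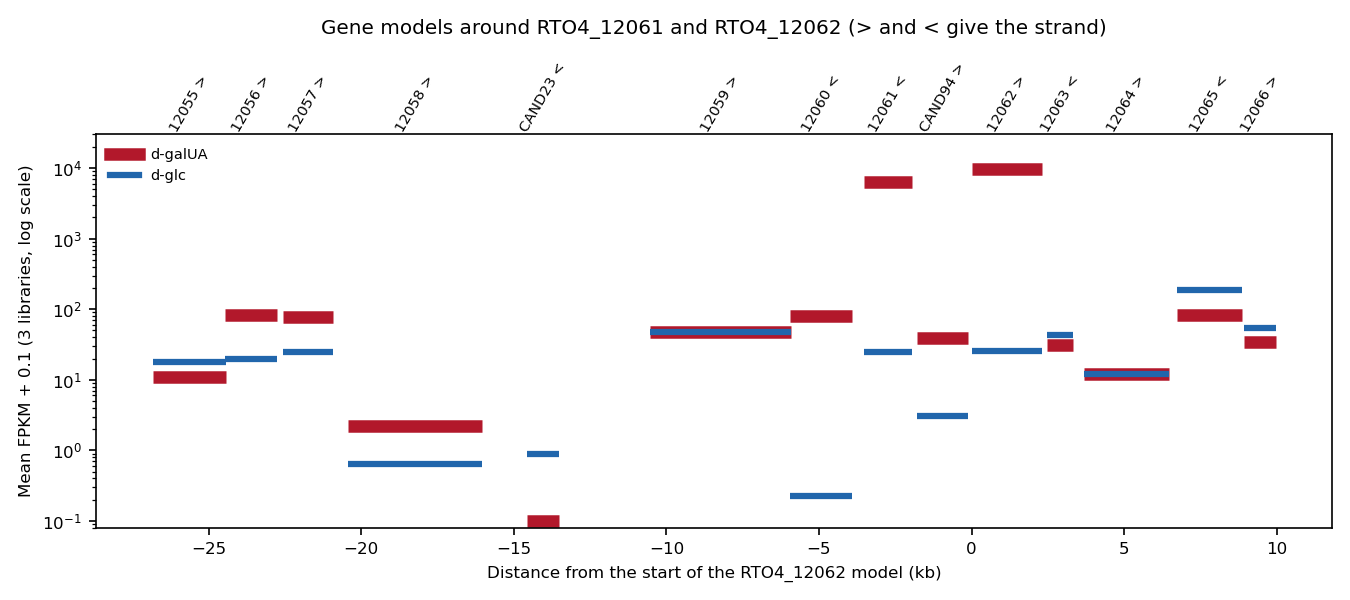
Mean FPKM + 0.1 (log scale, n = 3 libraries per carbon source) of the gene models around the aldolase RTO4_12061 and the dehydratase RTO4_12062, drawn at their distance in kb from the start of RTO4_12062, with d-galUA as thick red and d-glc as thin blue bars and the strand beside each protein number. Red bars stand above blue bars over the 4 models from RTO4_12060 to RTO4_12062, while RTO4_12059 and RTO4_12064 have nearly equal levels.

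Glycerol genes were higher on d-galUA, and the lower part of glycolysis was lower. All 3 glycerol genes that could be named rose. STL1 (RTO4_10704), a glycerol-proton symporter, had 2379, 2389 and 2316 FPKM on d-galUA and 265, 304 and 250.5 on d-glc (log2 fold change 3.11, SE 0.11, limma adjusted p = 7.20e-07). GUT1 (RTO4_11022), glycerol kinase, had 129, 119 and 118 FPKM on d-galUA and 23.7, 34.3 and 24.5 on d-glc (log2 fold change 2.13, SE 0.15, limma adjusted p = 2.39e-05). GUT2 (RTO4_11039), the mitochondrial glycerol phosphate dehydrogenase, had 411, 427 and 377 FPKM on d-galUA and 42.2, 59.6 and 45.5 on d-glc (log2 fold change 3.03, SE 0.14, limma adjusted p = 2.66e-06). In the 2 glycerol libraries GUT2 had 28.4 and 28.4 FPKM and STL1 had 188 and 215 FPKM.

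Of 11 glycolysis genes, 4 were lower and 0 higher, with a median log2 fold change of -0.86. The 4 that fell catalyze consecutive steps at the end of the pathway. CDC19 (RTO4_13002), pyruvate kinase, had 152, 148 and 144 FPKM on d-galUA and 457, 425 and 474 on d-glc (log2 fold change -1.61, SE 0.09, limma adjusted p = 7.50e-06). Enolase (ENO1 and ENO2, RTO4_9037) had 318, 341 and 349.9 FPKM on d-galUA and 854, 819.8 and 1022 on d-glc (log2 fold change -1.41, SE 0.12, limma adjusted p = 6.54e-05). GPM1 (RTO4_9910), phosphoglycerate mutase, had 172, 190.4 and 167 FPKM on d-galUA and 343, 356 and 501 on d-glc. PGK1 (RTO4_15721), phosphoglycerate kinase, had 429, 395 and 382 FPKM on d-galUA and 796, 976 and 739 on d-glc. In all 4 genes every d-galUA library was below every d-glc library, as in 623 of all 626 lower genes. The PGK1 and GPM1 models overlap a neighboring model by 178 and 59 bp. GPM1 and PGK1 were close to the 2-fold criterion, and their ratios were 1.98 without d-glc replicate 3 and 1.91 without d-glc replicate 2. A further 4 glycolysis genes had an adjusted p under 0.05 and a smaller decrease, among them phosphofructokinase (RTO4_8867, log2 fold change -0.93) and the glyceraldehyde phosphate dehydrogenase TDH (RTO4_10613, -0.86). The upper steps did not move together. FBA1 (RTO4_15420), aldolase of glycolysis, had 768, 728 and 691 FPKM on d-galUA and 749, 743 and 918 on d-glc (limma adjusted p = 0.409), and a hexokinase (RTO4_10264) had 95.2, 90.1 and 87.005 on d-galUA and 60.4, 72.7 and 74.7 on d-glc (limma adjusted p = 0.0211).

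In gluconeogenesis, FBP1 stood apart from its companions. FBP1 (RTO4_15423), fructose bisphosphatase, had 817, 881 and 858 FPKM on d-galUA and 118, 182 and 184 on d-glc (log2 fold change 2.42, SE 0.18, limma adjusted p = 2.99e-05). Pyruvate carboxylase (PYC1 and PYC2, RTO4_16630), which makes oxaloacetate from pyruvate, had 772, 822 and 811 FPKM on d-galUA and 445, 411 and 401 on d-glc, a difference that passed the test but stayed under 2-fold (log2 fold change 0.94, SE 0.10, limma adjusted p = 2.10e-04). PCK1 (RTO4_10841), phosphoenolpyruvate carboxykinase, had 78.2, 73.01 and 71.96 FPKM on d-galUA and 79.5, 132 and 102 on d-glc (limma adjusted p = 0.0644). The malate synthase of the glyoxylate cycle (MLS1 and DAL7, RTO4_9457) had 78.1, 81.6 and 76.8 FPKM on d-galUA and 76.6, 136 and 114 on d-glc (limma adjusted p = 0.114).

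Of 8 genes of the pentose phosphate pathway and NADPH supply, 2 were higher, and they are the oxidative steps that make NADPH. ZWF1 (RTO4_10000), glucose phosphate dehydrogenase, had 607, 638 and 555 FPKM on d-galUA and 134, 215 and 169.6 on d-glc (log2 fold change 1.81, SE 0.17, limma adjusted p = 1.19e-04). GND1 (GND1 and GND2, RTO4_15167), phosphogluconate dehydrogenase, had 2313, 2397 and 2275 FPKM on d-galUA and 957, 935 and 789 on d-glc (log2 fold change 1.39, SE 0.12, limma adjusted p = 9.31e-05). The lactonase between them (RTO4_14499, SOL family) had 216, 211 and 209 FPKM on d-galUA and 169, 194 and 231 on d-glc (limma adjusted p = 0.506). The non-oxidative branch genes RKI1, TKL1 and TAL1 passed the test with log2 fold changes of 0.69, 0.49 and 0.59, under 2-fold (RTO4_13288, RTO4_15631 and RTO4_10173). The malic enzyme MAE1 (RTO4_12761) had 83.8, 86.9 and 86.8 FPKM on d-galUA and 106, 146 and 111 on d-glc (log2 fold change -0.48, SE 0.13, limma adjusted p = 0.0194), and 453 and 548 FPKM in the 2 glycerol libraries.

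**Figure D4:**
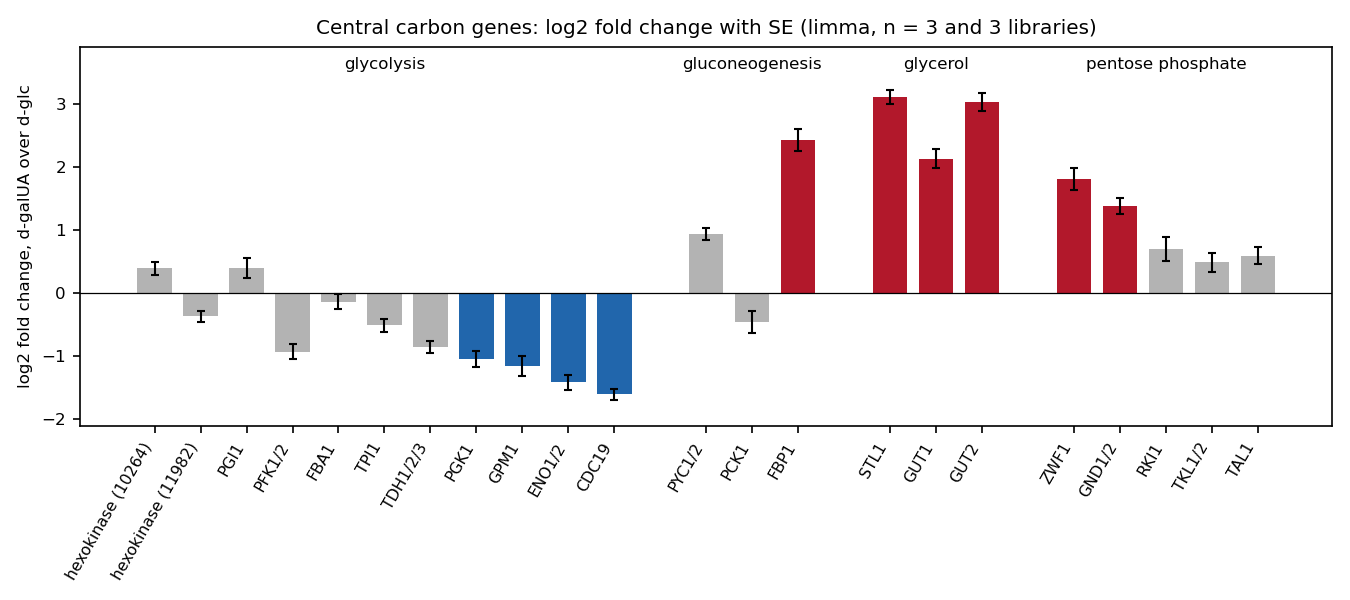
Log2 fold change of 22 central carbon genes, d-galUA over d-glc, as bars with SE from limma (n = 3 and 3 libraries), in pathway order, red for higher, blue for lower and gray for neither. The last 4 steps of glycolysis are blue, and FBP1, the 3 glycerol genes, ZWF1 and GND1 are red.

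A lactate transporter and some of the genes that bring lactate and acetate into metabolism were higher. Of 14 genes of pyruvate and acetate metabolism, 4 were higher and 0 lower (median log2 fold change 0.59). JEN1 (RTO4_10184), a lactate and pyruvate transporter, had 205, 216 and 181 FPKM on d-galUA and 2.67, 4.704 and 4.199 on d-glc (log2 fold change 5.39, SE 0.18, limma adjusted p = 4.40e-07), and 233 and 271 in the 2 glycerol libraries. CYB2 (RTO4_16607), which oxidizes lactate to pyruvate, had 83.3, 76.6 and 75.99 FPKM on d-galUA and 10.3, 21.1 and 16.8 on d-glc. Acetyl-CoA synthetase (ACS1 and ACS2, RTO4_14597) had 419.6, 397 and 378 FPKM on d-galUA and 105, 129 and 101 on d-glc, and an aldehyde dehydrogenase (ALD family, RTO4_12042) had 474, 430.2 and 414 on d-galUA and 106, 203 and 153 on d-glc. Subunits of pyruvate dehydrogenase passed the test under 2-fold: PDA1 (RTO4_13630) by a log2 fold change of 0.91, PDX1 (RTO4_13722) by 0.77 and PDB1 (RTO4_13948) by 0.38. Not all lactate and acetate entries followed. DLD1 (RTO4_13328) and the DLD2 and DLD3 entry (RTO4_16643) had log2 fold changes of 0.27 and -0.23 (limma adjusted p = 0.225 and 0.0919). ACH1 (RTO4_13797) had a decrease under 2-fold (log2 fold change -0.86, limma adjusted p = 1.71e-04). Adding d-glc replicate 4 left 1 of the 14 higher.

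The tricarboxylic acid cycle was mixed. Of 16 genes, 4 were higher and 1 lower, 6 and 7 had an adjusted p under 0.05 in the positive and negative direction, and the median log2 fold change was -0.03. The aconitase RTO4_11624 had 1567, 1512 and 1361 FPKM on d-galUA and 489, 331 and 334 on d-glc (log2 fold change 1.96, SE 0.17, limma adjusted p = 7.72e-05). MDH1 (RTO4_11178), mitochondrial malate dehydrogenase, was lower, with 735, 819 and 737 FPKM on d-galUA and 1703, 1749.8 and 1934 on d-glc (log2 fold change -1.23, SE 0.12, limma adjusted p = 1.15e-04). The other higher genes were SDH3 (RTO4_11629), SDH4 (RTO4_11802) and the aconitase RTO4_14600. SDH4 had 102, 113 and 106 FPKM on d-galUA and 43.1, 35.4 and 77.3 on d-glc, and its ratio was 1.77 without d-glc replicate 2, 1.90 without d-glc replicate 1 and 1.997 without d-galUA replicate 2. For RTO4_14600 it was 1.93 without d-glc replicate 2. Adding d-glc replicate 4 left 1 of the 16 higher.

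No ATP synthase gene was called, and respiratory chain genes were called about as often as the named genes. Of 13 respiratory genes, 1 was higher and 1 lower, against 10.3% and 4.68% of named genes. An adjusted p under 0.05 was reached by 4 with a positive and 1 with a negative log2 fold change, against 28.2% and 22.7% of named genes. NDE1 (NDE1 and NDE2, RTO4_8972), which oxidizes cytosolic NADH at the mitochondrial inner membrane, had 136, 148 and 146 FPKM on d-galUA and 755, 475 and 534 on d-glc (log2 fold change -2.003, SE 0.17, limma adjusted p = 6.96e-05), and 129 and 127 FPKM in the 2 glycerol libraries. With d-glc replicate 4 added, 0 of the 13 were higher or lower. Cytochrome c (RTO4_8802) had 827, 847 and 825 FPKM on d-galUA and 569, 213 and 432 on d-glc (log2 fold change 1.15, SE 0.32, limma adjusted p = 0.0201). Its call was lost with 4 of the 6 libraries left out in turn: leaving out d-galUA replicate 1, 2 or 3 gave a limma adjusted p of 0.0547, 0.0563 or 0.0531, and without d-glc replicate 2 its ratio was 1.66. None of the 11 ATP synthase genes had an adjusted p under 0.05 in limma, and their log2 fold changes ran between -0.29 and 0.23. An unadjusted p under 0.05 was reached by 0 of the 11, and an adjusted p under 0.05 in Ballgown's test by 1. ATP2 (RTO4_15589) had 2446, 2368 and 2313 FPKM on d-galUA and 2797, 2524 and 2401 on d-glc.

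Lipid genes differed by small factors, more often in the positive direction for fatty acids and in the negative direction for sterols. Of 15 genes of fatty acid and triacylglycerol synthesis, 2 were higher and 0 lower, and 11 had a positive and 1 a negative log2 fold change with an adjusted p under 0.05 (median 0.61). Among named genes 10.3% were higher and 4.68% lower, so the count of 2 does not set this list apart. An adjusted p under 0.05 was reached by 28.2% of named genes in the positive and 22.7% in the negative direction. The fatty acid synthase entry RTO4_8777 had 137, 140.2 and 136 FPKM on d-galUA and 77.4, 71.2 and 51.5 on d-glc (log2 fold change 1.06, SE 0.15, limma adjusted p = 9.95e-04), and the other entry, RTO4_8670, had a log2 fold change of 0.63, under 2-fold. ACB1 (RTO4_12826), the acyl-CoA binding protein, had 856, 967 and 994 on d-galUA and 394, 511 and 478 on d-glc (log2 fold change 1.03, SE 0.13, limma adjusted p = 5.69e-04). Both were near the 2-fold criterion: the ratio of RTO4_8777 was 1.86 without d-glc replicate 3, and that of ACB1 was 1.90 without d-glc replicate 1 and 1.98 without d-galUA replicate 3. None of the 15 was higher with d-glc replicate 4 added. Of 11 genes of fatty acid oxidation and peroxisomes, 4 were higher and 0 lower (median 0.68), against 2 higher with d-glc replicate 4 added. FAA2 (RTO4_12555), an acyl-CoA synthetase for medium chains, had 74.9, 75.4 and 70.6 FPKM on d-galUA and 13.5, 28.1 and 21.5 on d-glc (log2 fold change 1.82, SE 0.23, limma adjusted p = 5.47e-04). CAT2 (RTO4_14245), carnitine acetyltransferase, had 93.8, 92.6 and 95.96 FPKM on d-galUA and 25.6, 40.999 and 35.9 on d-glc. The other higher genes were the peroxisomal ATP carrier ANT1 (RTO4_16145, log2 fold change 1.31) and PEX11 (RTO4_14061, 1.21), which divides peroxisomes. In sterol synthesis 9 of 19 genes had a negative and 1 a positive log2 fold change with an adjusted p under 0.05, and by the 2-fold criterion 1 was lower and 1 higher, against 0 and 1 with d-glc replicate 4 added. ERG5 (RTO4_11716), a desaturase, had 639, 674 and 689.6 FPKM on d-galUA and 1289.9, 1566 and 1284 on d-glc (log2 fold change -1.04, SE 0.12, limma adjusted p = 3.68e-04; ratio 1.93 without d-glc replicate 2), whereas NCP1 (RTO4_13286), the reductase that feeds electrons to such enzymes, had 804, 878 and 837 on d-galUA and 371, 374 and 396 on d-glc (log2 fold change 1.14, SE 0.10, limma adjusted p = 6.78e-05).

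Several genes of galactose and storage carbohydrate metabolism were higher. On the route to GDP-mannose 3 genes were lower, of which PMI40 (RTO4_8607) was at the 2-fold criterion. Of 12 genes of galactose, glycogen and trehalose metabolism, 5 were higher and 0 lower, with a median log2 fold change of 0.92. GAL7 (RTO4_11332), galactose phosphate uridylyltransferase, had 347, 337 and 306 FPKM on d-galUA and 59.99, 56.3 and 48.1 on d-glc (log2 fold change 2.57, SE 0.11, limma adjusted p = 1.94e-06). UGP1 (RTO4_11752), which makes UDP-glucose, had 523, 513 and 489.7 FPKM on d-galUA and 111, 157 and 135 on d-glc (log2 fold change 1.92, SE 0.13, limma adjusted p = 2.37e-05). Phosphoglucomutase (PGM1 and PGM2, RTO4_9959) and GLC3 (RTO4_12594), the glycogen branching enzyme, had log2 fold changes of 1.305 and 1.54. The UGP1 and phosphoglucomutase models overlap a neighboring model by 207 and 206 bp. GAL10 (RTO4_8969), the epimerase, had 464, 499 and 507 FPKM on d-galUA and 197, 224 and 303 on d-glc, and its ratio fell below 2 to 1.86, 1.96 and 1.99 without d-glc replicate 1, d-glc replicate 2 and d-galUA replicate 3. GAL1 (RTO4_13990), galactokinase, passed the test under 2-fold (log2 fold change 0.90, SE 0.11, limma adjusted p = 4.78e-04). With the library labelled d-glc replicate 4 added, 1 of the 12 genes was higher.

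Of 16 cell wall and nucleotide sugar genes, 2 were higher and 5 lower, against 1 and 3 with d-glc replicate 4 added. CDA2 (RTO4_14623), a chitin deacetylase, was among the most changed of all genes, with 743, 661 and 703 FPKM on d-galUA and 4.31, 4.08 and 3.71 on d-glc (log2 fold change 7.13, SE 0.10, limma adjusted p = 1.57e-08), and 132 and 129 in the 2 glycerol libraries. KRE6 (SKN1 and KRE6, RTO4_8518), of glucan synthesis, had 181, 159 and 174 FPKM on d-galUA and 51.9, 80.1 and 59.6 on d-glc. The other entry of these orthologs, RTO4_11647, had 70.4, 67.6 and 75.5 FPKM on d-galUA and 128, 168 and 118 on d-glc, a decrease under 2-fold (log2 fold change -0.93, SE 0.14, limma adjusted p = 0.00131). The route to GDP-mannose fell: PSA1 (RTO4_14956), GDP-mannose pyrophosphorylase, had 441, 458 and 447 FPKM on d-galUA and 988, 1228 and 1147 on d-glc (log2 fold change -1.31, SE 0.12, limma adjusted p = 8.44e-05), and SEC53 (RTO4_9241), phosphomannomutase, had 285, 278 and 286 on d-galUA and 554, 647 and 697 on d-glc (log2 fold change -1.15, SE 0.11, limma adjusted p = 1.42e-04). PMI40 (RTO4_8607), GFA1 (RTO4_12099) and a chitin synthase (RTO4_14960) were lower by little more than 2-fold. Without d-glc replicate 2 their ratios were 1.78, 1.97 and 1.88, and 2 of the 16 genes were lower, against 4 to 6 with any other library left out. The ratio of PMI40 was also 1.996 without d-galUA replicate 2 and 1.96 without d-galUA replicate 3. It was 1.96 with TPM and 1.986 with median-of-ratios scaling. That of the chitin synthase was 1.96 without d-galUA replicate 1 and 1.96 without d-glc replicate 1.

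Amino acid synthesis genes were lower more often than higher, while several uptake genes were higher. Of 51 amino acid synthesis genes, 4 were higher and 8 lower, 7 and 30 had a positive and a negative log2 fold change with an adjusted p under 0.05, and the median was -0.38. With d-glc replicate 4 added, 2 were higher and 6 lower. GLY1 (RTO4_16182), threonine aldolase, had 77.3, 78.6 and 91.2 FPKM on d-galUA and 304, 278 and 342 on d-glc (log2 fold change -1.89, SE 0.12, limma adjusted p = 1.16e-05). CPA1 (RTO4_13297), of arginine synthesis, had 175, 193 and 199.5 FPKM on d-galUA and 610.4, 494 and 522 on d-glc (log2 fold change -1.51, SE 0.11, limma adjusted p = 3.68e-05). ARG3 (RTO4_13302), of the same route, had 65.5, 65.5 and 63.5 FPKM on d-galUA and 139.9, 127 and 206 on d-glc (log2 fold change -1.24, SE 0.17, limma adjusted p = 9.01e-04). SER3 (SER3 and SER33, RTO4_9085), the entry step of serine synthesis, had 61.9, 63.01 and 57.5 FPKM on d-galUA and 196, 157 and 189 on d-glc. Glutamate dehydrogenase (RTO4_12248) had 227, 230.1 and 231 FPKM on d-galUA and 517, 338 and 549 on d-glc, and its ratio was 1.87 without d-glc replicate 3 and 1.93 without d-glc replicate 1. In the opposite direction, the ILV3 entry RTO4_14626, of branched-chain amino acid synthesis, had 321, 292 and 262 FPKM on d-galUA and 13.3, 31.1 and 16.3 on d-glc (log2 fold change 3.87, SE 0.28, limma adjusted p = 2.65e-05). The other ILV3 entry, RTO4_9689, had 225, 195 and 241 FPKM on d-galUA and 372, 283 and 319 on d-glc, a decrease under 2-fold (log2 fold change -0.55, SE 0.13, limma adjusted p = 0.0113).

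Of 13 genes of sulfur assimilation and methionine synthesis, 1 was lower, MET16 (RTO4_11741), with 55.8, 64.5 and 59.1 FPKM on d-galUA and 136, 96.5 and 148 on d-glc, whose ratio was 1.95 without d-glc replicate 3. It was not lower with d-glc replicate 4 added. In this list 5 had a negative and 0 a positive log2 fold change with an adjusted p under 0.05. Of 16 transporters of amino acids, peptides and organic acids, 8 were higher and 1 lower, with a median log2 fold change of 1.06, against 10.3% and 4.68% of named genes. DIP5 (RTO4_9962), an acidic amino acid permease, had 239, 227 and 256 FPKM on d-galUA and 2.36, 2.197 and 2.95 on d-glc (log2 fold change 6.11, SE 0.12, limma adjusted p = 3.82e-08), and 419 and 508 in the 2 glycerol libraries. TNA1 (RTO4_12221), which carries nicotinic acid in S. cerevisiae, had 193, 168 and 168 FPKM on d-galUA and 3.49, 4.6001 and 4.096 on d-glc (log2 fold change 5.14, SE 0.12, limma adjusted p = 1.11e-07). A general amino acid permease (RTO4_14229) had 219, 197 and 215 FPKM on d-galUA and 4.26, 6.49 and 6.48 on d-glc (log2 fold change 4.99, SE 0.15, limma adjusted p = 3.32e-07), and 20.2 and 22.7 in the 2 glycerol libraries. PTR2 (RTO4_16031), of peptide uptake, had 735, 752 and 666 FPKM on d-galUA and 115, 87.4 and 96.5 on d-glc. SFC1 (RTO4_12605), the mitochondrial succinate-fumarate carrier, had 191, 193 and 193 FPKM on d-galUA and 13.96, 17.4 and 21.8 on d-glc, and 6.32 and 6.44 in the 2 glycerol libraries. The lower gene was a purine-cytosine permease (RTO4_14558), with 88.6, 94.7 and 96.6 FPKM on d-galUA and 389, 221 and 299 on d-glc, whereas its other entry, RTO4_14461, had a limma adjusted p of 0.0784. With the library labelled d-glc replicate 4 added, 2 of the 16 were higher.

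Ribosome biogenesis genes were mostly lower on d-galUA, by less than 2-fold in the majority. Of 23 such genes, 20 had a negative and 0 a positive log2 fold change with an adjusted p under 0.05, against 23.9% negative over all genes tested, 6 were lower by the 2-fold criterion, and the median was -0.76. NIP7 (RTO4_10417), of the large subunit, had 70.98, 83.3 and 80.96 FPKM on d-galUA and 191, 154 and 234 on d-glc (log2 fold change -1.27, SE 0.16, limma adjusted p = 4.86e-04). NSR1 (RTO4_13963), nucleolin, had 116, 108 and 121 FPKM on d-galUA and 292, 201 and 253 on d-glc (log2 fold change -1.09, SE 0.14, limma adjusted p = 6.62e-04). Their values did not overlap between the carbon sources, as in 623 of all 626 lower genes. The 2-fold count depended on d-glc replicate 1, without which 1 gene, NIP7, was lower (5 to 7 with any other library left out) and the ratio of NSR1 was 1.98. None of the 23 genes was lower with d-glc replicate 4 added. In the 2 glycerol libraries NIP7 had 62.2 and 55.3 FPKM and NSR1 83.02 and 75.3 FPKM.

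Of 75 cytosolic ribosomal protein genes, 19 had a negative and 0 a positive log2 fold change with an adjusted p under 0.05, and the median was -0.42. The negative share is close to the 23.9% of all genes tested and the 22.7% of named genes. The positive shares of these are 23.3% and 28.2%. A single gene, the stalk protein RPP1 (RTO4_15130), met the 2-fold criterion, with 660.4, 634 and 763 FPKM on d-galUA and 1126, 996 and 2165.8 on d-glc, and without d-glc replicate 3 its ratio was 1.55. It also lost its call without d-galUA replicate 1 (limma adjusted p = 0.0679) and without d-galUA replicate 2 (0.0719). The count of lower genes was 7 without d-glc replicate 2, 0 or 1 with any other library left out, and 0 with d-glc replicate 4 added. Of 22 mitochondrial ribosomal protein genes, 8 had a negative log2 fold change with an adjusted p under 0.05 (median -0.29), and 0 met the 2-fold criterion. RPS27 (RTO4_14937), the most abundant transcript on both carbon sources, had 22404, 21289.6 and 23952 FPKM on d-galUA and 26934, 20417 and 27184 on d-glc (limma adjusted p = 0.689).

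Of 25 translation factors, 3 were lower and 0 higher (median -0.43), against 1 lower with d-glc replicate 4 added. YEF3 (RTO4_10103), of an elongation factor found in fungi, had 744, 769.6 and 796 FPKM on d-galUA and 2381, 1702 and 1466 on d-glc (log2 fold change -1.23, SE 0.18, limma adjusted p = 0.00118), and a second entry of the same paralogs, RTO4_10362, had 49.03, 51.5 and 54.6 on d-galUA and 149.7, 134 and 121 on d-glc (log2 fold change -1.36, SE 0.11, limma adjusted p = 4.46e-05). TEF4 (TEF4 and CAM1, RTO4_9736), of elongation factor EF-1B, had 174, 191 and 182 FPKM on d-galUA and 688, 468 and 569.6 on d-glc (log2 fold change -1.64, SE 0.15, limma adjusted p = 9.21e-05; adjusted p = 0.291 with d-glc replicate 4 added). The other TEF4 and CAM1 entry, RTO4_9735, had 742, 691 and 668 FPKM on d-galUA and 688, 663 and 587 on d-glc (limma adjusted p = 0.413). None of 19 aminoacyl-tRNA synthetases met the 2-fold criterion, and 8 had a negative and 1 a positive log2 fold change with an adjusted p under 0.05. In the proteasome 4 of 23 genes had a positive and 0 a negative log2 fold change with an adjusted p under 0.05, against 23.3% and 23.9% of all genes tested, and 0 met the criterion. Of 25 chaperones, 3 were higher and 0 lower, 10 had a positive and 6 a negative log2 fold change with an adjusted p under 0.05, and the median was 0.03. The higher ones were SIS1 (RTO4_15345), HSP78 and HSP104 (RTO4_12376) and an HSP70 entry (RTO4_8976), by log2 fold changes of 1.21, 1.18 and 1.09. Of the other HSP70 entries with the same orthologs, RTO4_12087 and RTO4_16570 had log2 fold changes of -0.95 and -0.70, and RTO4_9983 had 0.63. With d-glc replicate 4 added, 2 of the 25 were higher. The ratio of RTO4_12376 was 1.91 without d-glc replicate 3. Of 22 histone and DNA replication genes, 1 was lower, RNR2 (RTO4_14237), the small subunit of ribonucleotide reductase, with 214, 208 and 205 FPKM on d-galUA and 444, 645 and 476 on d-glc (log2 fold change -1.30, SE 0.15, limma adjusted p = 3.16e-04).

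**Figure D5:**
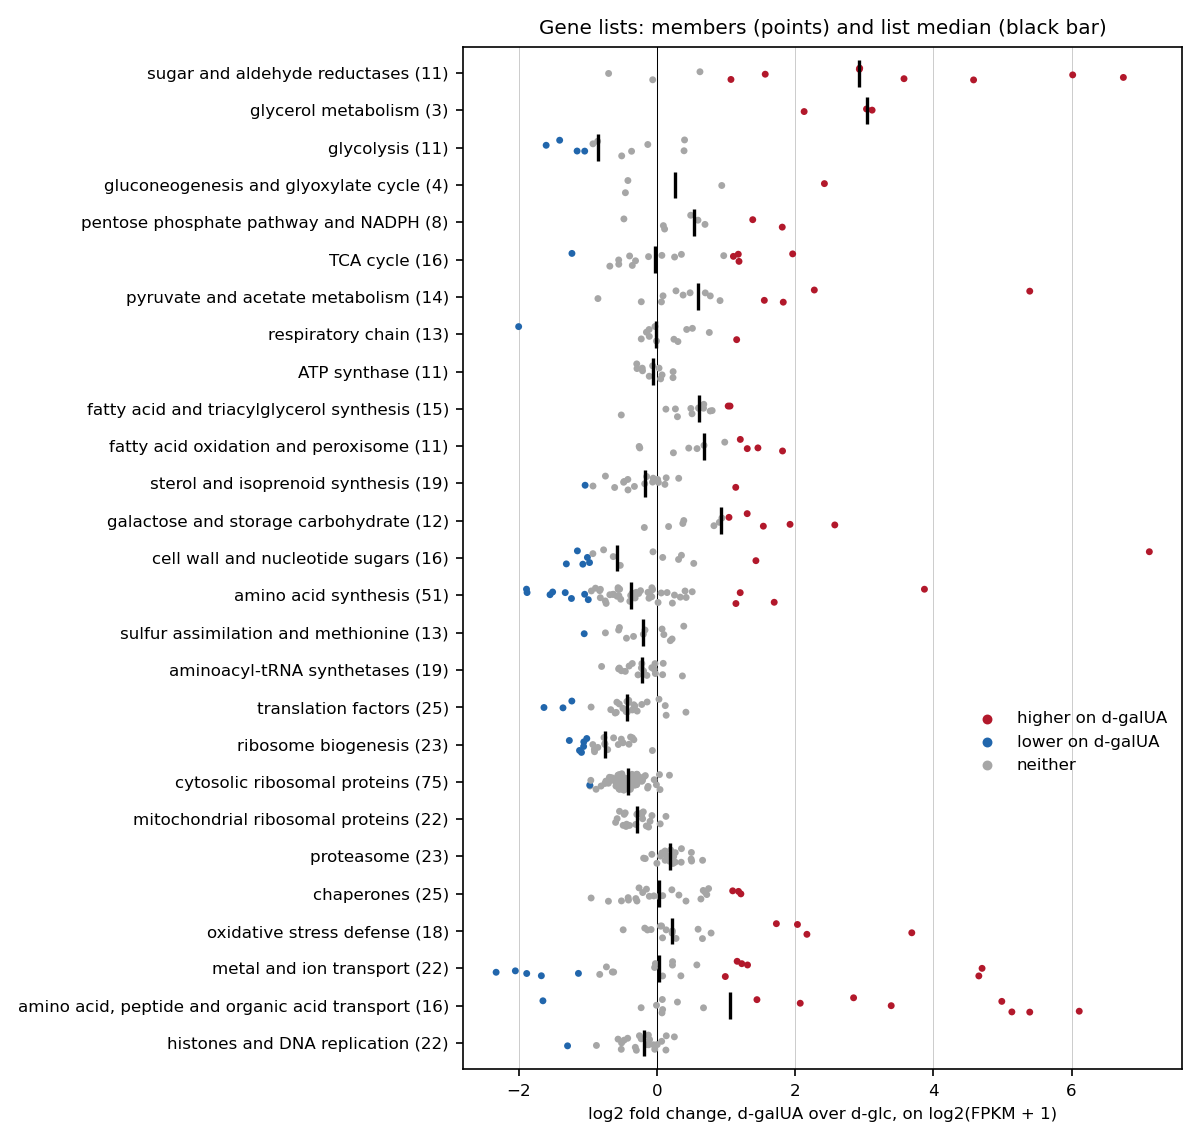
Log2 fold change, d-galUA over d-glc, of the members of 27 gene lists (points, red for higher, blue for lower, gray for neither), with the number of members tested beside each list and the list median as a black bar; vertical scatter within a list carries no value. Reductases, glycerol genes and transporters of amino acids, peptides and organic acids lie to the right, and glycolysis and ribosome biogenesis to the left. ATP synthase and the proteasome lie close to 0, and metal and ion transport genes lie on both sides of it.

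Iron uptake genes were lower on d-galUA. Of 22 metal and ion transport genes, 6 were higher and 5 lower, and all 5 lower genes belong to iron uptake. FET3 (FET3 and FET5, RTO4_9364), the multicopper ferroxidase of high-affinity iron uptake, had 260.5, 215 and 253 FPKM on d-galUA and 1329.8, 1144 and 1191 on d-glc (log2 fold change -2.33, SE 0.12, limma adjusted p = 4.77e-06). Its partner permease FTR1 had 2 entries: RTO4_15844 with 222, 166 and 219 FPKM on d-galUA and 877, 786 and 845 on d-glc (log2 fold change -2.05, SE 0.14, limma adjusted p = 1.74e-05), and RTO4_15845 with 72.8, 72.95 and 73.1 on d-galUA and 159, 149 and 179 on d-glc (log2 fold change -1.14, SE 0.10, limma adjusted p = 7.46e-05). These 2 genes are neighbors on scaffold 8, in a run of 3 lower genes. RTO4_12325, which the study calls SIT1, a siderophore transporter, had 141, 99.01 and 132 FPKM on d-galUA and 437, 459 and 473 on d-glc (log2 fold change -1.89, SE 0.14, limma adjusted p = 3.49e-05), and a further siderophore transporter entry, RTO4_11249, had 118, 93.2 and 117 on d-galUA and 315, 359 and 375 on d-glc (log2 fold change -1.67, SE 0.13, limma adjusted p = 3.46e-05). Another entry of the siderophore family, RTO4_11669, had 150.4, 93.9 and 129 on d-galUA and 184, 206 and 187 on d-glc (log2 fold change -0.65, SE 0.17, limma adjusted p = 0.0158). In all 5 lower genes the 3 d-galUA libraries lay below the 3 d-glc libraries, as in 623 of all 626 lower genes. In the 2 glycerol libraries the levels were lower again, with 34.8 and 33.6 FPKM for FET3, 6.07 and 6.77 for RTO4_15844, 2.11 and 1.998 for RTO4_12325 and 1.09 and 1.36 for RTO4_11249. With the library labelled d-glc replicate 4 added, 0 of these 5 genes were lower and 2 of the 6 higher genes were higher. That library had 36.8 FPKM for FET3 and 12.2 for RTO4_15844.

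The higher ion transport genes carry sodium, potassium and calcium in S. cerevisiae. ENA1 (ENA family, RTO4_12846), a sodium-exporting ATPase, had 321, 276 and 303 FPKM on d-galUA and 9.02, 12.3 and 10.5 on d-glc (log2 fold change 4.70, SE 0.13, limma adjusted p = 2.10e-07), and 19.1 and 21.1 in the 2 glycerol libraries. VCX1 (RTO4_9287), a vacuolar calcium-proton exchanger, had 563, 507 and 509.9 FPKM on d-galUA and 13.1, 29.9 and 19.8 on d-glc (log2 fold change 4.66, SE 0.25, limma adjusted p = 6.09e-06), and 429.5 and 399.6 in the 2 glycerol libraries. A second VCX1 entry (RTO4_15553) and the calcium ATPase PMC1 (RTO4_8631) were higher by log2 fold changes of 1.31 and 1.23, and the sodium-proton antiporter NHA1 (RTO4_10812) by 1.16. Another VCX1 entry, RTO4_15907, was at the 2-fold criterion, and its ratio was 1.92 to 1.99 without d-glc replicate 1, d-glc replicate 3, d-galUA replicate 1 or d-galUA replicate 3.

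Of 18 oxidative stress genes, 4 were higher and 0 lower (median 0.22). GTT1 (RTO4_8914), a glutathione transferase, had 238, 229 and 269 FPKM on d-galUA and 15.4, 18.8 and 20.4 on d-glc (log2 fold change 3.69, SE 0.13, limma adjusted p = 5.50e-07). ECM4 (ECM4 and GTO3, RTO4_11814), another glutathione transferase, had 375, 342 and 321 FPKM on d-galUA and 66.4, 105 and 62.6 on d-glc. CCP1 (RTO4_13161), cytochrome c peroxidase, had 777, 941 and 804 FPKM on d-galUA and 171, 217 and 229.7 on d-glc, and AHP1 (RTO4_13262), a thiol peroxidase, had 649.6, 666 and 625 on d-galUA and 129, 229 and 249 on d-glc. Adding d-glc replicate 4 left 2 of the 18 higher.

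The genes with the steepest decrease on d-galUA had no name in the copy of the annotation used here, which holds few genes that are low on d-galUA. RTO4_11264 had 3.26, 4.03 and 4.18 FPKM on d-galUA and 2206, 2935 and 2607 on d-glc (log2 fold change -9.06, SE 0.13, limma adjusted p = 1.57e-08), and 5.35 and 3.09 in the 2 glycerol libraries. It was thus a major transcript in the 3 d-glc libraries and a rare one in the other 5 of these 8 libraries. RTO4_13993 had 14.02, 12.3 and 11.3 FPKM on d-galUA and 1111, 1346 and 1055 on d-glc (log2 fold change -6.43, SE 0.13, limma adjusted p = 4.34e-08), and 18.2 and 12.6 in the 2 glycerol libraries. RTO4_16349 followed another course, with 1.19, 2.11 and 1.74 FPKM on d-galUA, 210.3, 243 and 316 on d-glc and 295 and 297 in the 2 glycerol libraries. On scaffold 8, RTO4_15931 (positions 576257 to 576999) and RTO4_15937 (590690 to 591432) also had steep decreases, with other models lying between them. RTO4_15931 had 117, 210 and 144 FPKM on d-glc and a log2 fold change of -7.03. RTO4_15937 was listed at 0 in all 3 d-galUA libraries and had 96.6, 167 and 106 FPKM on d-glc. Whether these 2 models share reads was not tested. RTO4_8516 had 57.998, 42.6 and 59.96 FPKM on d-galUA and 781, 815 and 868 on d-glc (log2 fold change -3.93, SE 0.14, limma adjusted p = 7.20e-07), and RTO4_16096 had 129, 145 and 151 on d-galUA and 864, 1472 and 1310.1 on d-glc (log2 fold change -3.06, SE 0.20, limma adjusted p = 1.53e-05). In RTO4_9949 the d-glc libraries differed widely, at 266, 427 and 889 FPKM, against 8.14 and 10.2 FPKM in d-galUA replicates 1 and 2 and a value listed at 0 in replicate 3. With d-glc replicate 4 added, RTO4_16349 and RTO4_9949 kept an adjusted p under 0.05, while the other 6 of these 8 genes had adjusted p values from 0.0571 (RTO4_15931) to 0.345 (RTO4_16096). A value of 0 can be a failed estimate in these tables: for 25 genes 1 library showed 0 although a replicate of it reached an FPKM of 10.

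Also lower were 2 genes of thiamine synthesis, picked out after their values were seen. THI4 (RTO4_16324), which makes the thiazole part of thiamine, had 197, 155 and 171 FPKM on d-galUA and 605, 692 and 702 on d-glc (log2 fold change -1.93, SE 0.12, limma adjusted p = 1.39e-05), and 779 and 811 in the 2 glycerol libraries. An entry of the THI13 family (RTO4_11147), which makes the pyrimidine part, had 453, 442 and 445 FPKM on d-galUA and 1425, 1591 and 1362 on d-glc (log2 fold change -1.70, SE 0.11, limma adjusted p = 1.36e-05; adjusted p = 0.102 with d-glc replicate 4 added). The ribonuclease RNY1 (RTO4_12665) was among the 10 largest increases in FPKM, with 2291, 2307 and 2237 on d-galUA and 72.9, 113 and 95.6 on d-glc (log2 fold change 4.61, SE 0.16, limma adjusted p = 5.50e-07). Also picked after its values were seen, RTO4_11990, an entry of the yeast glucose sensors RGT2 and SNF3, had 1692, 1857 and 1711 FPKM on d-galUA and 653, 566 and 615 on d-glc (log2 fold change 1.52, SE 0.11, limma adjusted p = 3.18e-05; adjusted p = 0.782 with d-glc replicate 4 added), and 12677 and 14725.7 in the 2 glycerol libraries. Among the unnamed genes, RTO4_15825 was the third most abundant transcript on d-galUA and differed by less than 2-fold, with 10049, 9632 and 9565 on d-galUA, 5447, 6086 and 6100.1 on d-glc and 10027 and 9003 in the 2 glycerol libraries. RTO4_9339 had 3684, 3834 and 3524 on d-galUA, 243, 220.2 and 245 on d-glc and 3596 and 4448 in the 2 glycerol libraries (limma adjusted p = 0.0637 with d-glc replicate 4 added), and RTO4_13820 had 3162, 3364 and 3326 on d-galUA, 368, 334 and 506 on d-glc and 537 and 545 in the 2 glycerol libraries.

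Signaling and tRNA modification genes picked out in the study stayed under 2-fold. None of 10 glucose regulators and G proteins met the 2-fold criterion, and 4 had a positive log2 fold change with an adjusted p under 0.05. SNF1 (RTO4_16778), the kinase that responds to low glucose, had 55.3, 56.8 and 49.1 FPKM on d-galUA and 46.6, 67.4 and 44.5 on d-glc (limma adjusted p = 0.841). YPT6 (RTO4_15198), a small GTPase of vesicle traffic, had 391, 428 and 395 FPKM on d-galUA and 252, 269 and 246 on d-glc (log2 fold change 0.66, SE 0.09, limma adjusted p = 9.26e-04). None of 4 tRNA thiolation genes met the criterion, and their log2 fold changes ran between -0.32 and 0.30. RTO4_9490, which resembles polygalacturonases, enzymes that cut pectin, had 23.5, 23.03 and 20.7 FPKM on d-galUA and 32.6, 38.5 and 33.1 on d-glc (log2 fold change -0.61, SE 0.11, limma adjusted p = 0.00326), a decrease of less than 2-fold.

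Some genes with the same call lay next to each other. Of 8549 pairs of neighboring gene models, both were higher in 110 and both were lower in 96. In all, 27.4% of the higher genes and 28.1% of the lower genes had a neighbor with the same call. Over all genes tested 8.24% were higher and 7.4% lower, and most genes have a neighbor on either side. How many such pairs would arise with the calls placed independently was not tested. Runs of 4 higher genes occurred in 7 places, and 1 run of 5 lower genes, RTO4_15733 to RTO4_15737, lay on scaffold 8. The run on scaffold 17, RTO4_11676 to RTO4_11679, had no overlapping models and ratios between 2.27 and 8.45. RTO4_9841 had a higher neighbor, RTO4_9842, with 27.4, 31.3 and 28.8 FPKM on d-galUA and 0.463, 0.735 and 0.689 on d-glc (log2 fold change 4.21, SE 0.13, limma adjusted p = 3.02e-07). Overlap with another model is part of the setting: 27.4% of the higher genes, 21.2% of the lower genes and 24.4% of all genes tested overlapped another model, and reads there may count for either gene. Among genes named above, ANT1 (RTO4_16145) overlapped another model by 196 bp, RNY1 (RTO4_12665) by 144 bp, MDH1 (RTO4_11178) by 128 bp and CPA1 (RTO4_13297) by 114 bp. Of the 92 CAND models, 4 were higher and 5 lower.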

How the data were processed

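Cultures of R. toruloides IFO0880 were sampled, as labelled, on d-galUA (3 libraries), d-glc (4) and glycerol (2). Per the labels and the study's methods, reads were aligned with HISAT2 2.1.0 and assembled against the version 4 gene models with StringTie 1.3.3b. The authors deposited 1 table per library with coverage, FPKM and TPM for each gene model. The FPKM values are fragments per kilobase scaled to mapped fragments, the deposited TPM values scale each library to a fixed total, and the deposited coverage is the mean read depth over a model. How multimapped reads and strand were treated is not given in the sources used here. Depth was computed from coverage and FPKM at a read length of 50 bases.

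FPKM was tested on log2(FPKM + 1) in limma 3.58.1 (R 4.3.3) with a mean-variance trend and empirical Bayes moderation, over genes above 0 in at least 1 of the 6 libraries, with Benjamini-Hochberg adjustment. A fold change is on the log2(FPKM + 1) scale, which understates changes of low genes. A gene was called at an adjusted p under 0.05, a mean FPKM of 5 or more on 1 carbon source and a 2-fold difference in means. Alternatives were a pseudocount of 0.1 or 5, other filters, Ballgown's linear model test written out, no trend, TPM, median-of-ratios and quantile normalization, d-glc replicate 4 added, all 3 carbon sources in 1 fit, a replicate block, and each library left out. Tables were handled in Python 3.11.15 with pandas 2.3.3, numpy 2.4.6 and matplotlib 3.10.9. The test was tested on simulated data.

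Named genes were the members of the gene lists, the 10 with the largest fold change and the 10 with the largest FPKM difference per direction, the 5 most abundant per carbon source, the genes noted in the study and runs of called neighbors, with a few others marked where they appear. The genes and lists were chosen with earlier results of these data known. Gene names came from the study's annotation table, whose values served only to see which libraries its means rest on.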

Additional observations from a re-analysis of the deposited data

Results flagged for a closer look

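In 9 of 18 genes of the d-galUA pathway, the noted transporters and glycerol use and gluconeogenesis, 1 of the 4 libraries labelled d-glc stood far from the others. In 8 of these 9 it was the library labelled d-glc replicate 4, which the comparison leaves out. Chance alone would set a library apart in a small share of such groups, and the genes are not independent of each other. RTO4_12061 had 124 FPKM in that library, against 19.2 to 34.0 in the other 3, and RTO4_12062 had 77.4 FPKM, against 22.5 to 27.2. Among the transporters it had 70.9 FPKM of RTO4_10452 (2.27 to 3.50 in the others), 44.8 of RTO4_16194 (10.998 to 14.2), 85.3 of RTO4_9841 (20.7 to 25.3) and 18.8 of RTO4_9846 (4.95 to 6.10). RTO4_13727 had 441 FPKM in it (73.9 to 95.3 in the others), and RTO4_13731 had 232 FPKM (44.5 to 58.1). In the 2 glycerol libraries RTO4_12062 had 45.3 and 49.2 FPKM, RTO4_10452 had 67.8 and 77.96, RTO4_13727 had 443 and 539 and RTO4_13731 had 234 and 257. In the remaining gene, RTO4_9848, d-glc replicate 1 had 0.555 FPKM and the other 3 libraries were listed at 0.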

How the results depend on the processing

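The counts of 697 higher and 626 lower genes moved by less than 1.5 times in all settings tried except the addition of d-glc replicate 4 and the removal of the 2-fold criterion. With no 2-fold criterion, 1673 genes were higher and 1848 lower, by construction. With d-glc replicate 4 added as labelled, 364 were higher and 303 lower. This library had r of 0.987 to 0.989 with the glycerol libraries and 0.870 to 0.872 with the d-glc libraries. It also enters the glycerol means of the study's table. Calls lost with it added are to be read beside these values, and the cause was not tested. Leaving out 1 library gave 630 to 760 higher and 614 to 646 lower genes. The replicate numbers did not pair the libraries, since same-numbered libraries had correlations of -0.085, -0.137 and 0.164 between their deviations from the group means, and the fit with a replicate block gave 700 higher and 632 lower genes. Among the genes examined by name, 5 that were uncalled but had an adjusted p under 0.05 changed sign with d-glc replicate 4 added. Their log2 fold changes moved as follows: RTO4_11669 to 0.63 (from -0.65), TSA1 (RTO4_12715) to 0.24 (from -0.49), RTO4_12825 to 0.11 (from -0.83), RTO4_13727 to -0.22 (from 0.39) and RTO4_15438 to -0.21 (from 0.70). Sign changes of other uncalled genes with that library added are not listed. Without d-glc replicate 3, QCR6 (RTO4_15758) had 0.49, and without d-glc replicate 2 -0.31, against -0.01 with all 6 libraries. Of 232 called genes among the 673 examined by name, 99 lost an adjusted p under 0.05 with d-glc replicate 4 added, and 0 reversed. The tables give no counts, so depth limits low genes to an unknown extent.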
